A study of Mus musculus with 20 samples.

Results

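The genes described here are 9 genes whose transcripts mark megakaryocytes and platelets, namely Pf4, Ppbp, Itga2b, Gp9, Gp1ba, Gp1bb, Gp5, Vwf, and Treml1. They were found by gene symbol among the 55401 genes of the count table, where each symbol occurred once. The study removed Nsun6, an RNA methyltransferase that writes 5-methylcytosine, from C57BL/6J mice by a CRISPR-Cas9 deletion of exons 3 and 4 in the germline, so that every cell of the knockout (KO) carries the deletion. Sequenced RNA came from 5 organs of 8-week-old female KO mice and wild-type (WT) mice, namely the spleen, heart, liver, kidney, and small intestine, with 2 WT and 2 KO libraries in each organ and 20 libraries in all. The labels name no treatment beyond the genotype. The study calls the libraries of a genotype biological replicates. The labels do not tie them to animals or say whether the organs came from the same animals, so the p-values below measure the spread between these libraries. The comparison asked whether the platelet transcripts of the spleen differed between KO and WT, and how they stood beside the erythroid transcripts of the same libraries.

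Megakaryocytes are large polyploid cells that shed platelets into the blood, and in mice they are found in the spleen as well as in the bone marrow. They share a progenitor and several transcription factors, such as GATA1, with the erythroid lineage, which forms red blood cells and is likewise active in the mouse spleen. Platelets have no nucleus and carry the transcripts packed by their parent cell, so that any organ that holds blood also holds traces of them. On the platelet surface, the products of Gp1ba, Gp1bb, Gp9, and Gp5 form the receptor for von Willebrand factor, and the product of Itga2b pairs with that of Itgb3 as the fibrinogen receptor. Pf4 and Ppbp encode chemokines of the alpha granules, Treml1 encodes a granule membrane receptor that reaches the surface upon activation, and Vwf encodes von Willebrand factor itself, which endothelial cells produce as well.

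Pf4 (ENSMUSG00000029373) spans 90772435 to 90773383 of chromosome 5 (GRCm38, plus strand), and Ppbp (ENSMUSG00000029372) lies next to it, from 90768518 to 90770063 on the same strand, with 2371 bases between them. Itga2b (ENSMUSG00000034664) lies on chromosome 11, from 102453297 to 102470122 on the minus strand, and Gp1ba (ENSMUSG00000050675) on the same chromosome, from 70639122 to 70642036 on the plus strand. Gp9 (ENSMUSG00000030054) lies on chromosome 6, from 87778072 to 87779768 on the plus strand, and Vwf (ENSMUSG00000001930) also on chromosome 6, from 125546774 to 125686679 on the plus strand. Gp1bb (ENSMUSG00000050761) and Gp5 (ENSMUSG00000047953) lie on chromosome 16, from 18620317 to 18622403 and from 30307685 to 30310779, both on the minus strand. Treml1 (ENSMUSG00000023993) lies on chromosome 17, from 48359916 to 48367176 on the plus strand. The values were counted over the exons of each gene.

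The promoters are shown because Pf4, Itga2b, Gp1ba, Gp9, and Gp5, though scattered over the genome, carry the same short letters close to their starts. RefSeq promoter sequences of GRCm38.p6 were found for 8 of the 9 genes, all but Vwf. The 110 bases just before the RefSeq start are printed 5′ to 3′ on the strand of the gene. This was done for the 5 genes that hold AGGAAG there. These letters are a form of the site that ETS family factors such as FLI1 bind, and other forms were not searched. Ppbp, the neighbour of Pf4, is also printed and does not hold AGGAAG there. Gp1bb and Treml1 do not hold AGGAAG in this window either. Capitals mark the letters AGGAAG, which read CTTCCT on the other strand, and 2 forms of the core that GATA factors bind. These forms are AGATAA, which reads TTATCT on the other strand, and TGATAA, which reads TTATCA there. AGGAAG and these 2 GATA forms were each searched on both strands, and other forms of the GATA core were not searched. No 2 marked matches overlap.
Gp1ba: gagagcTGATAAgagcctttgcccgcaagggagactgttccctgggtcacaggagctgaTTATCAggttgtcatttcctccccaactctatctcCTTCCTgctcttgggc
Gp9: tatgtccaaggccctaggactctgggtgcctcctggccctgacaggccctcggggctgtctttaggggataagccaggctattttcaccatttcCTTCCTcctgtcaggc
Gp5: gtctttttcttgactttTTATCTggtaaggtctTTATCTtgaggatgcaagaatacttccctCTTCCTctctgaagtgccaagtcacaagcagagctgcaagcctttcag
Itga2b: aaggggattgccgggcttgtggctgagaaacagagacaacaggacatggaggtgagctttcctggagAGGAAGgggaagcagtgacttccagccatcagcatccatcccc
Pf4: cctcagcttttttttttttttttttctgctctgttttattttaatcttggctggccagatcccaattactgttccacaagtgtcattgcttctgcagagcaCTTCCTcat
Ppbp: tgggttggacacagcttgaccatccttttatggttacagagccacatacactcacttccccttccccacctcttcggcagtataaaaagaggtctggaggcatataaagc
These windows are chr11:70639012-70639121 on the plus strand for Gp1ba, chr6:87777960-87778069 on the plus strand for Gp9, chr16:30310782-30310891 on the minus strand for Gp5, chr11:102469884-102469993 on the minus strand for Itga2b, chr5:90772325-90772434 on the plus strand for Pf4, and chr5:90768408-90768517 on the plus strand for Ppbp. AGGAAG stood in this window in 5 of 8 genes, compared with 15.1% of 32851 mouse promoters and 2 of 21 erythroid genes with an entry. In the whole 300-base entries, which run past the start, it stood in 6 of 8 genes, 35.4% of all promoters, and 6 of 21 erythroid genes, so that the difference was smaller there. Either of these 2 GATA forms stood in the 110-base window in 2 of 8 genes, Gp1ba and Gp5, compared with 6.79% of all promoters and 10 of 21 erythroid genes. In the whole entry the values were 3 of 8, 18.6%, and 15 of 21. Counted from the RefSeq start, the first base of the AGGAAG match was at -16 in both Gp1ba and Gp9 and at -9 in Pf4. It was at -43 in Itga2b and at -48 in Gp5. For Itga2b the RefSeq start differs from that of the counted gene, which reaches 102470122, so its window lies inside the counted gene. A match of letters is a description of the sequence, and no binding was measured here.

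Total counts per library ranged from 15897446 to 44508197, with a median of 28513950, and the 4 spleen libraries totalled 34687048 and 25021003 for the WT pair and 30041724 and 28636897 for the KO pair. In CPM, which are counts scaled to the size of the library with trimmed mean (TMM) factors, Nsun6 stood at 8.77 and 6.59 in the WT spleen libraries and at 5.99 and 10.3 in the KO ones. Because the counts cover all exons of Nsun6 and not only the deleted ones, its level does not check the genotype. The spleen libraries held their defining markers, with the B cell gene Cd79a at 698.5 TPM (counts scaled to gene length and library size) or more and the stromal gene Tlx1 at 13.8 TPM or more, and the markers of the other organs were likewise highest in their own organ, except for Apoa1, which the small intestine also expresses. One spleen library stood apart in its liver transcripts. The summed CPM of 15 hepatocyte genes was 6103 in WT replicate 2, compared with 172.6 in WT replicate 1, 421.0 in KO replicate 1, and 497.1 in KO replicate 2, and Alb, which encodes albumin, was the most abundant of them in WT replicate 2. The same library had the highest value of each of the 8 genes that were counted in the spleen. The estimates of the 9 genes and of most gene lists in the spleen are therefore also given without it. Kidney transcripts stood higher in KO replicate 1, where the summed CPM of 4 kidney genes was 13.3. That sum was 0.304 and 0.434 in the WT libraries and 0.291 in KO replicate 2.

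One of the 9 genes could not be measured. Gp1bb had 0 counts in 18 of 20 libraries and 1 count in each of the other two, both from the small intestine. Of its 2087 exon bases, 1938 (92.9%) also belong to exons of Septin5 or Gm49601 on the same strand, and counting that leaves out reads on shared bases leaves 149 bases of its own. With 0 counts in every spleen library, the limit of 3 counts corresponds to 0.0830 to 0.118 CPM there. Gp1bb was not tested in any organ, and nothing is said below of its transcript.

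In the spleen, the 8 measured genes had mean levels from 3.46 TPM for Vwf to 565.9 TPM for Ppbp, and none passed the test between KO and WT. Their estimates were all lower in KO, by log2 differences between -0.98 for Gp5 and -0.08 for Gp9, with a median of -0.56, whereas the median over all 18834 genes tested was 0.01. DEGs were genes with more than a 2-fold difference whose p in edgeR's quasi-likelihood test, adjusted by Benjamini-Hochberg, was under 0.1. By this rule 41 genes (0.218%) were higher and 1 gene (0.00531%) was lower in the KO spleen, and 0 of 8 platelet genes were among them. At an unadjusted p under 0.05 with a lower estimate there were 4 of the 8, compared with 156 genes (0.828%) of all tested, and DESeq2 called 0 of the 8, while it called 8 genes (0.0267% of those tested) lower in KO. An estimate below 0 was found for 48.7% of all genes. In a bulk tissue, fewer megakaryocytes or platelets and less RNA per cell cannot be told apart.

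Among the adhesion receptors, Gp5, which encodes glycoprotein V, had the lowest estimate. It stood at 6.39 and 11.3 CPM in WT replicates 1 and 2 and at 4.90 and 4.04 CPM in KO replicates 1 and 2. The KO pair lay below the WT pair. The log2 fold change was -0.98 (standard error, SE, 0.36, 95% interval -1.82 to -0.15), with an adjusted p of 0.784 in edgeR's quasi-likelihood test, and without WT replicate 2 it was -0.52. Gp1ba, which encodes the subunit that binds von Willebrand factor, had 5.59 and 6.83 CPM in WT and 4.16 and 4.37 CPM in KO, again without overlap. Its log2 fold change was -0.54 (SE 0.31), with an adjusted p of 1 in the same edgeR test, and -0.39 without WT replicate 2.

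Itga2b, which encodes the alpha subunit of the fibrinogen receptor and is present from early megakaryocyte progenitors on, stood at 37.7 and 59.2 CPM in WT and at 33.9 and 31.4 CPM in KO. The genotypes did not overlap, although WT replicate 1 was closer to the KO libraries than to WT replicate 2. The log2 fold change was -0.57 (SE 0.24), with an adjusted p of 0.936 in edgeR's test, and -0.21 without WT replicate 2. Gp9, which encodes the glycoprotein IX subunit, had 9.32 and 16.9 CPM in WT and 11.97 and 12.7 CPM in KO. Here both KO libraries lay between the WT libraries, and the estimate of -0.08 (SE 0.31) turned to 0.40 when WT replicate 2 was left out.

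The granule chemokines were the most abundant of the 9 genes in the spleen. Pf4, or platelet factor 4, stood at 109.6 and 165.3 CPM in WT and at 80.7 and 100.7 CPM in KO, with the KO pair below the WT pair. Its log2 fold change was -0.60 (SE 0.23, 95% interval -1.14 to -0.06), with an adjusted p of 0.844 in edgeR's test, and 0.382 in DESeq2. Without WT replicate 2 it was -0.28. Ppbp, or pro-platelet basic protein, had 212.4 and 328.3 CPM in WT and 161.8 and 260.1 CPM in KO. Unlike those of Pf4, its values overlapped, since KO replicate 2 exceeded WT replicate 1. The log2 fold change of Ppbp was -0.36 (SE 0.30) and -0.01 without WT replicate 2.

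Vwf stood at 20.8 and 32.6 CPM in WT and at 17.3 and 16.02 CPM in KO, and Treml1 at 8.41 and 10.6 CPM in WT and at 6.66 and 6.99 CPM in KO. The genotypes were separate for both genes. The log2 fold change was -0.68 (SE 0.25, adjusted p 0.813 in edgeR's test) for Vwf and -0.47 (SE 0.26, adjusted p 1) for Treml1. Without WT replicate 2 they were -0.32 and -0.30. In all, 6 of the 8 genes had both KO libraries below both WT libraries, compared with 2706 genes (14.4%) of all tested.

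**Figure D1:**
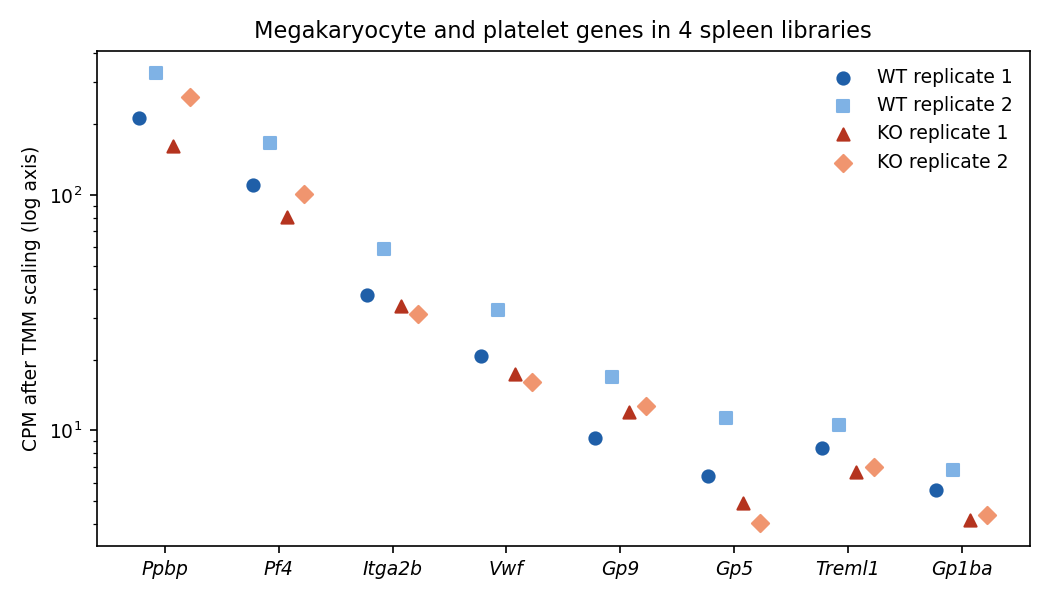
The plot shows the CPM after TMM scaling (log axis) of the 8 measured genes in each of the 4 spleen libraries, with 1 point per library. WT replicate 2 is the highest point for every gene, and the KO points lie below both WT points for 6 genes but not for Ppbp and Gp9.

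The size of these differences depended on the libraries. With 1 spleen library left out at a time, 31 of 32 estimates stayed below 0, the exception being Gp9 without WT replicate 2. The median over the 8 genes was -0.77 without WT replicate 1, -0.29 without WT replicate 2, -0.51 without KO replicate 1, and -0.59 without KO replicate 2. None of the 8 passed the test in any of these fits.

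**Figure D2:**
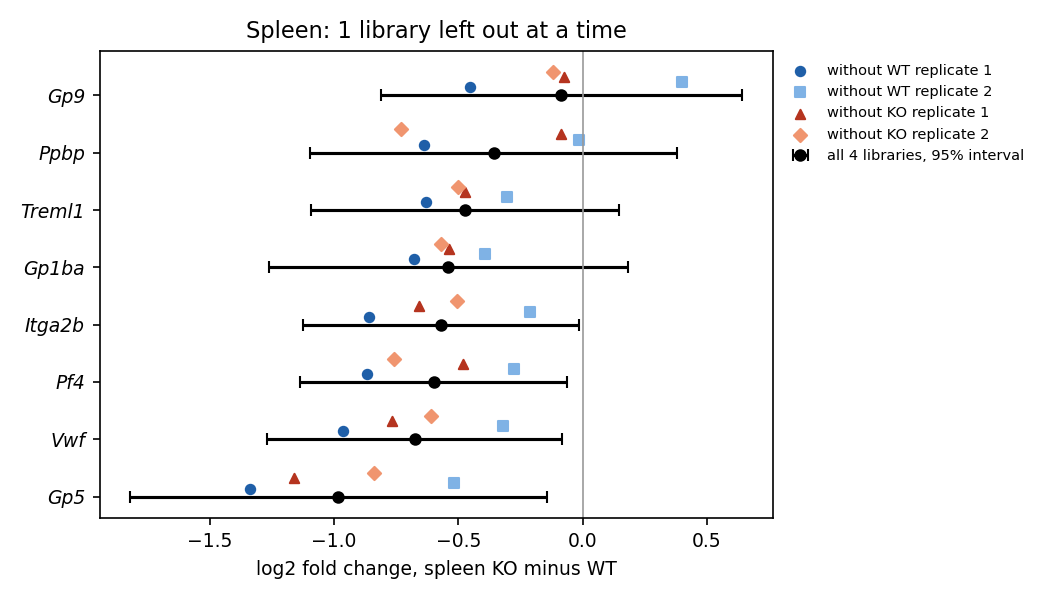
Log2 fold changes (KO minus WT) of the 8 genes in the spleen are shown for all 4 libraries with 95% intervals (black) and with 1 library left out (coloured, above each black point). The values without WT replicate 2 are the closest to 0 or, for Gp9, above it, at 0.40.

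The erythroid genes of the same libraries stood on the other side. Of 30 erythroid genes tested, all had estimates above 0, which 51.3% of all genes had. The median was 1.33 on the log2 scale, and 9 were DEGs, compared with the 0.218% of all genes that were called higher. Without WT replicate 2 the median was 1.70 and 24 of the 30 were called, compared with 1.32% of all genes called higher in that fit, whereas without KO replicate 2 no gene of any kind was called among 19941 tested. Slc4a1, the gene of band 3, which exchanges anions across the red cell membrane, rose from 316.6 and 358.7 CPM in WT to 1013 and 990.1 CPM in KO, a log2 difference of 1.57 (SE 0.16, adjusted p 0.0656 in edgeR's test). Trim10, an erythroid ubiquitin ligase gene, rose by 1.78, Epb42, the gene of membrane protein 4.2, by 1.67, and Hemgn, the gene of the nuclear protein hemogen, by 1.85 on the log2 scale. The lowest of the 30 estimates belonged to Car1, the gene of carbonic anhydrase 1, at 0.69 (SE 0.56), which did not pass the test. The groups of values were therefore apart, as the highest estimate of a platelet gene was -0.08 and the lowest of an erythroid gene 0.69.

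Within single libraries, the summed CPM of the 9 platelet genes was 410.2 and 631.0 in WT and 321.4 and 436.3 in KO, and that of 31 erythroid genes was 20175 and 28462 in WT and 48803 and 55965 in KO. The platelet sums overlapped between the genotypes, and the erythroid sums did not. The platelet sum was thus 2.03% and 2.22% of the erythroid sum in WT and 0.659% and 0.780% in KO. Without the globin genes, which dominate the erythroid sum, it was 11.8% and 13.4% in WT and 3.02% and 4.09% in KO. WT replicate 2, which held the liver transcripts, had the higher value of each WT pair. For both percentages, though not for the sums, WT replicate 1 alone was still above both KO libraries.

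Genes of dividing cells stood with the erythroid genes, with 18 of 18 estimates above 0, a median of 1.03 on the log2 scale, and 2 DEGs, compared with 0.218% of all genes. The number called was 13 without WT replicate 2, with a median of 1.35, 2 without WT replicate 1, and 0 without either KO library. Of all genes, 265 of 20006 (1.32%), 70 of 19970, 20 of 19961 (without KO replicate 1), and 0 of 19941 (without KO replicate 2) were called higher in these fits. The 2 DEGs were Mki67, the gene of the proliferation antigen Ki-67, with 1.40 (SE 0.17, adjusted p 0.0711 in edgeR's test), and Cenpf, the gene of a kinetochore protein, with 1.34 (SE 0.19, adjusted p 0.0969). The lowest estimate was that of the mitotic kinase gene Plk1, at 0.62.

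The wider platelet programme was read from 3 further lists. Of 16 genes for other platelet receptors, 12 had lower estimates in KO, and the median log2 fold change was -0.22 with no DEG. There were 9 lower and 7 higher estimates without WT replicate 2, and the median was then -0.03. The lowest value belonged to Mpig6b, which encodes an inhibitory receptor of megakaryocytes and platelets, at 6.47 and 8.76 CPM in WT and 4.63 and 3.20 CPM in KO (log2 fold change -0.96, SE 0.34, adjusted p 0.765 in edgeR's test). The highest belonged to Selp, the gene of P-selectin, at 0.50 (SE 0.55), with 1.32 CPM or less in each library. The most abundant gene of this list was Cd9, a tetraspanin gene of many cell types, at -0.18 (SE 0.16). Itgb3, the partner of Itga2b and named here after its values were seen, stood at 79.3 and 96.1 CPM in WT and 66.9 and 65.3 CPM in KO, a log2 difference of -0.41 (SE 0.16, adjusted p 0.919).

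Of 23 genes for platelet granule proteins, enzymes, and the cytoskeleton, 21 had estimates below 0, with a median of -0.18 on the log2 scale and no DEG. Without WT replicate 2 the estimates were 13 lower and 10 higher, with a median of -0.06. The lowest was Thbs1, the gene of the granule adhesion protein thrombospondin 1, at 55.1 and 85.8 CPM in WT and 38.8 and 44.6 CPM in KO (log2 fold change -0.75, SE 0.23, adjusted p 0.562 in edgeR's test). The highest was Bin2, the gene of a membrane-bending protein of blood cells, at 0.13 (SE 0.18). Many genes of this list are expressed outside platelets too, and the most abundant, Srgn, encodes a granule proteoglycan found in many blood cells.

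The third list held 12 regulators of megakaryocyte formation, and it split evenly, with 6 higher and 6 lower estimates, a median of -0.01, and no DEG by edgeR. Without WT replicate 2 it split in the same way, with a median of -0.06, and edgeR called Tal1 and Nfe2 higher, along with 1.32% of all genes. The highest was Tal1, a transcription factor gene of both the megakaryocyte and the erythroid lineage, at 38.8 and 72.6 CPM in WT and 149.9 and 128.3 CPM in KO. The KO values lay above the WT values, as they did for 3194 of all 18834 genes tested. The log2 difference of Tal1 was 1.32 (SE 0.30, adjusted p 0.311 in edgeR's test). Nfe2 and Gata1, which also serve both lineages and are named here after their values were seen, had log2 fold changes of 1.06 (SE 0.24, adjusted p 0.249) and 0.998 (SE 0.53, adjusted p 1). DESeq2 called 2 genes of this list higher in KO (0.667% of all genes it tested), with adjusted p of 0.000977 for Tal1 and 0.00533 for Nfe2.

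**Figure D3:**
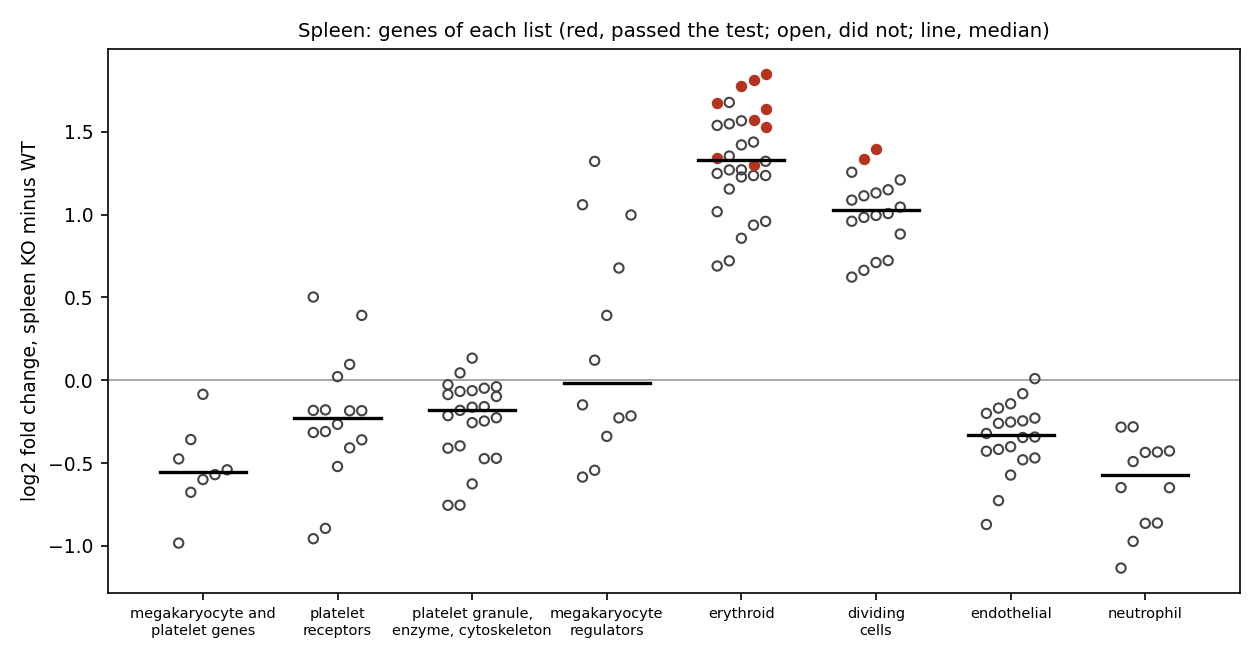
Each point is the log2 fold change (KO minus WT) of 1 gene in the spleen, grouped by list, with the median as a line and DEGs in red. The 8 platelet genes lie below 0 and the 30 erythroid genes at 0.69 or above, and 11 points of the erythroid and dividing cell lists are red.

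Markers of other spleen cells were compared because several of the 9 genes are not exclusive to platelets. Of 7 genes that define the spleen, such as Cd79a and Tlx1, 6 had estimates below 0, with a median of -0.20 and no DEG. Their summed CPM was 4284 and 3725 in WT and 3596 and 3341 in KO, so that both KO sums lay below both WT sums. Of 20 endothelial genes, 19 had estimates below 0, with a median of -0.33 on the log2 scale and no DEG, and their summed CPM was 783.1 and 828.2 in WT and 740.9 and 530.0 in KO. With WT replicate 2 left out, 18 were lower and the median was -0.27, and with KO replicate 2 left out, which had the lowest sum, 15 were lower and the median was -0.14. The most abundant by mean TPM was Plvap, the gene of a protein of endothelial fenestrae, at -0.47 (SE 0.41), the lowest was the transcription factor gene Sox18, at -0.87 (SE 0.45), and the highest was Ecscr, the gene of an endothelial surface protein, at 0.01. None of these 20 genes was at 0 in a spleen library. Endothelial cells are a known source of Vwf, and their part in its lower estimate was not tested. All 12 neutrophil genes had lower estimates, with a median of -0.57 and no DEG, and their summed CPM of 459.2 and 997.9 in WT and 297.6 and 692.7 in KO overlapped. This direction rested on WT replicate 2, without which 4 were lower and 8 higher, with a median of 0.09. In that list S100a9, the gene of a calcium-binding protein, was the most abundant at -0.43, Mpo, the gene of myeloperoxidase, was the lowest at -1.13, and Retnlg was the highest at -0.28.

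Of 14 macrophage genes, 11 had higher estimates, with a median of 0.15 and no DEG, and without WT replicate 2 there were 12, with a median of 0.27. Without KO replicate 1, 5 were higher and the median was -0.08. Their most abundant gene was the complement gene C1qa, at 0.05, with Lyve1 the highest at 1.08 and Vsig4 the lowest at -0.60. In each spleen library Lyve1 had 5.34 CPM or less and Vsig4 2.17 CPM or less. The mast cell and basophil list, of which 7 genes were tested, had 4 higher and 3 lower estimates and a median of 0.22. The median was 0.53 over 8 genes without WT replicate 2 and 0.02 without KO replicate 2. It was -0.04 over 6 genes with at least 10 counts in every library. Kit was the most abundant at -0.30, Tpsb2 the highest at 1.47 (SE 0.56), and Mcpt8 the lowest at -0.86 (SE 0.81). In each spleen library Tpsb2 had 1.25 CPM or less and Mcpt8 2.41 CPM or less. All 15 hepatocyte genes had lower estimates, from -3.98 for Apoh to -0.60 for Trf, with -3.54 for Alb, and their sums by library are those given above for WT replicate 2 and the others. Without that library all 15 estimates were higher, with a median of 3.61, and 10 were called, compared with 1.32% of all genes.

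Across organs, the platelet genes were highest in the spleen, with the exception of Vwf. Levels are given per transcript length as TPM, as the mean ± SD over the 4 libraries of an organ, and the tests come from a fit of all 20 libraries on TMM-scaled counts, averaged over WT and KO. In that fit, 6 of the 8 measured genes (Pf4, Ppbp, Itga2b, Gp9, Gp5, and Treml1) were called higher in the spleen than in each of the other 4 organs, by the thresholds given for DEGs. Without WT replicate 2 of the spleen there were 5, since Pf4 no longer passed against the heart (log2 difference 0.95, SE 0.46, adjusted p 0.103 in edgeR's test). Of all 23159 genes tested, 27.5% were called higher in the spleen than in the heart, 24.1% than in the kidney, 29.7% than in the liver, and 25.4% than in the small intestine. These shares are for single organs, and the share of all genes called against all 4 organs at once is not given here.

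Ppbp had 565.9 ± 173.5 TPM in the spleen, 25.9 ± 21.1 in the heart, 2.39 ± 1.20 in the liver, 2.24 ± 1.45 in the kidney, and 0.0749 ± 0.150 in the small intestine, where 3 of 4 libraries had 0 counts. Pf4 had 405.0 ± 140.6 TPM in the spleen, 114.5 ± 21.2 in the heart, 7.43 ± 2.55 in the kidney, 5.07 ± 2.17 in the small intestine, and, lowest, 3.91 ± 1.09 in the liver. For both genes the heart came second, and the spleen exceeded the heart by a log2 difference of 4.03 (SE 0.48, adjusted p 1.06e-05 in edgeR's test) for Ppbp but of 1.12 (SE 0.41, adjusted p 0.0309) for Pf4. No pair of the kidney, small intestine, and liver passed the test for Pf4, with adjusted p from 0.413 to 0.893, and neither did the liver against the kidney for Ppbp (0.138).

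Gp9 stood at 36.6 ± 8.998 TPM in the spleen, 3.64 ± 2.85 in the heart, and 0.590 ± 0.581 or less in the other organs. Treml1 stood at 14.9 ± 3.88 TPM in the spleen and 1.24 ± 1.496 in the heart, and it had 0 counts in all 4 small intestine libraries, 3 of 4 kidney libraries, and 1 of 4 liver libraries. Gp5 stood at 7.81 ± 4.02 TPM in the spleen and 0.549 ± 0.602 in the heart. These 3 genes share the order of Ppbp and Pf4, with the heart second, although the fit did not separate Gp5 in the heart from Gp5 in the liver (adjusted p 0.874).

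Itga2b and Gp1ba were more even among organs. Itga2b had 19.02 ± 6.52 TPM in the spleen, 3.93 ± 2.36 in the kidney, 2.31 ± 0.655 in the small intestine, 1.86 ± 1.24 in the heart, and 1.38 ± 0.298 in the liver. The heart was thus not second for this gene. No pair of the 4 organs other than the spleen passed the test, the smallest adjusted p being 0.0642 for the kidney against the heart, at a log2 difference of 0.87. The order of the low organs depended on the scale, since the fit placed the liver above the heart by 0.30. Gp1ba had 4.94 ± 1.39 TPM in the spleen, 2.91 ± 0.952 in the heart, 0.881 ± 0.326 in the liver, 0.866 ± 0.324 in the kidney, and 0.592 ± 0.175 in the small intestine. The spleen did not pass the test against the heart for Gp1ba (log2 difference 0.15, SE 0.39, adjusted p 0.794).

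Vwf was highest in the heart, with 10.9 ± 5.80 TPM, followed by the spleen with 3.46 ± 1.31, the small intestine with 0.541 ± 0.233, the kidney with 0.359 ± 0.122, and the liver with 0.293 ± 0.0843. The spleen was lower than the heart by a log2 difference of -2.26 (SE 0.37, adjusted p 0.000132 in edgeR's test) and higher than the small intestine, liver, and kidney, of which no pair passed the test.

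**Figure D4:**
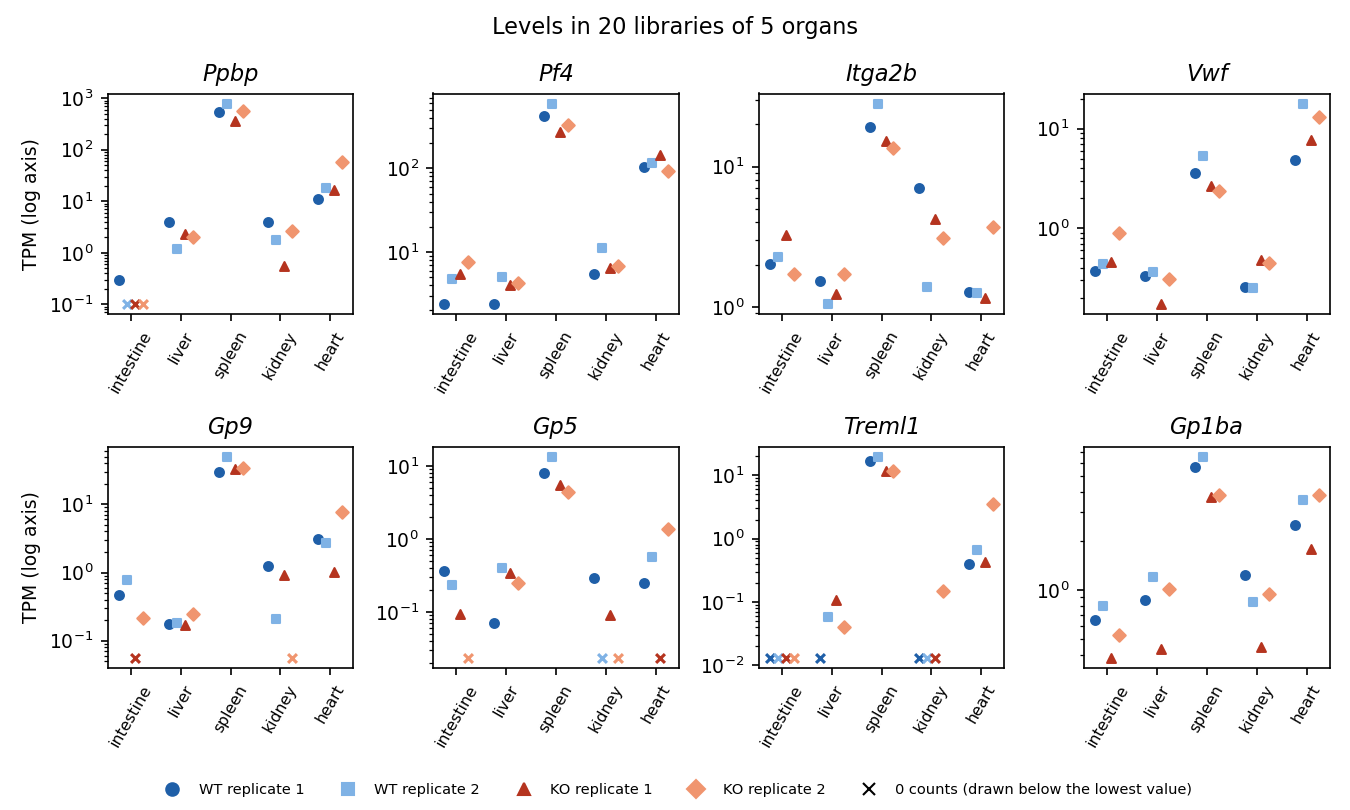
TPM (log axis) of the 8 measured genes in each of the 20 libraries, by organ, with crosses for 0 counts drawn below the lowest value. The spleen is the highest organ in each panel except that of Vwf, where the heart is, and KO replicate 2 of the heart is the highest heart library for Ppbp, Itga2b, Gp9, Gp5, Treml1, and Gp1ba.

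Ratios of the genes within a library described how far they moved together. In the spleen, the TPM of Vwf was 0.187 and 0.187 times that of Itga2b in WT and 0.174 and 0.174 times in KO, while both genes were higher in each WT library than in each KO library. In the heart this ratio ranged from 3.56 to 14.2, and Pecam1, an endothelial gene that platelets also carry and that is named here after its values were seen, stood at 78.8 to 129.3 TPM there, compared with 57.7 to 104.9 TPM in the spleen. The TPM of Ppbp was 1.29 to 1.72 times that of Pf4 in the 4 spleen libraries, 0.108 to 0.157 times in 3 heart libraries, and 0.613 times in the KO replicate 2 heart library. The ratio of these granule chemokines was thus lower in each heart library than in each spleen library.

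**Figure D5:**
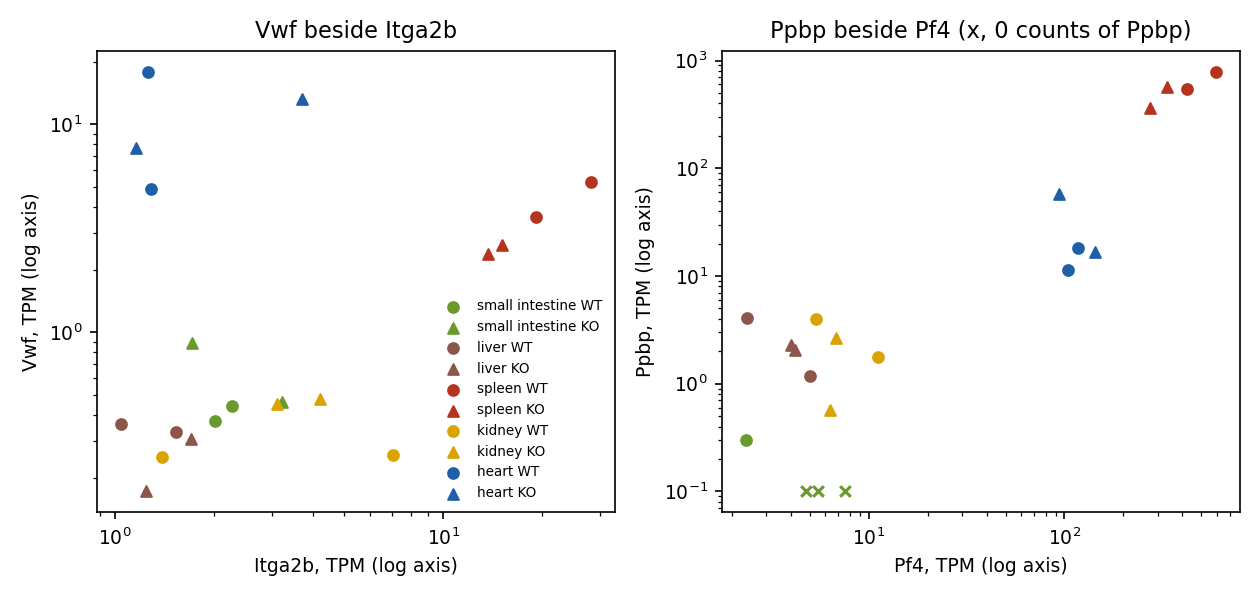
Each point is 1 of the 20 libraries, with the TPM of Vwf against that of Itga2b on the left and of Ppbp against that of Pf4 on the right, on log axes, with circles for WT, triangles for KO, and crosses for 0 counts of Ppbp. The spleen points fall on a line in the left panel, and the heart points lie apart from them, at lower Itga2b.

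In the organs other than the spleen, none of the platelet genes was called between KO and WT. Most were at low levels there, apart from Pf4, Ppbp, and Vwf in the heart. The filter on low counts left 7 of the 9 genes in the heart, 6 in the liver, 5 in the kidney, and 4 in the small intestine. A DEG higher in KO was rare in these organs, at 0.0509% of genes in the liver and 0% in the other 3, and 0% of genes were called lower in each. By DESeq2 likewise, 0 of the 9 genes were called in these organs. Calls were rare over all genes too, with 36 higher and 15 lower of 28573 in the small intestine. They were 33 and 20 of 25602 in the liver, 0 and 0 of 28514 in the kidney, and 0 and 3 of 27983 in the heart. At an unadjusted p under 0.05 in edgeR's test, the count of platelet genes was 1 of 7 in the heart (Ppbp, higher), and 0 in the kidney, liver, and small intestine. For comparison, the shares of all genes higher and lower at this p were 0.186% and 0.517% in the heart, 0.405% and 0.234% in the kidney, 2.74% and 1.96% in the liver, and 1.77% and 0.617% in the small intestine. Most intervals in these organs were wider than those in the spleen, and the size of difference that could be detected was not tested.

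Ppbp in the heart stood at 5.22 and 6.63 CPM in WT and at 8.29 and 19.4 CPM in KO. Both KO libraries lay above both WT libraries, which held for 7.56% of all genes, and the log2 fold change was 1.23 (SE 0.45, 95% interval 0.16 to 2.29), with an adjusted p of 1 in edgeR's test, and 0.48 without KO replicate 2. The KO replicate 2 heart library also had the highest TPM of Treml1, Gp9, Gp5, Itga2b, and Gp1ba among the heart libraries, with 3.48 TPM of Treml1 compared with 0.663 or less in the others. Its globin TPM, at 3972, was the lowest of the heart libraries, which had 8948 and 7936 in WT and 14280.2 in KO replicate 1. Pf4 did not share this pattern, with 93.4 TPM in that library and 104.8 to 142.8 in the others.

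For Pf4 the log2 fold changes were 0.18 (SE 0.40) in the heart, -0.51 (SE 0.72) in the kidney, 0.28 (SE 0.58) in the liver, and 0.73 (SE 0.77) in the small intestine. Itga2b had 0.83 (SE 0.50), -0.01 (SE 0.63), 0.41 (SE 0.34), and 0.03 (SE 0.50) in the same order, and in the kidney it varied from 3.86 to 11.8 CPM between the WT libraries alone. Without WT replicate 1 of the kidney, its estimate there was 1.01 and passed the test (adjusted p 0.0895 in edgeR's test), in a fit that called 14.3% of all genes higher in KO. The signs were thus mixed, and the SEs were mostly larger than those in the spleen.
Vwf had 0.65 (SE 0.66) in the small intestine, where all 19 endothelial genes tested had higher estimates in KO with a median of 1.12, against 50.4% of all genes there. KO replicate 2 of the small intestine stood apart, as the summed CPM of the endothelial list was 37.4 and 57.7 in WT and 37.5 and 159.5 in KO. Without this library 7 of 20 endothelial estimates were higher, with a median of -0.21, and Vwf had -0.17. The part of these cells in its value was not tested. Its values were -0.07 (SE 0.47) in the heart, 0.81 (SE 0.54) in the kidney, and -0.37 (SE 0.45) in the liver. Of 20 endothelial estimates, 12 were higher in the heart, 18 in the kidney, and 9 in the liver, with medians of 0.09, 0.30, and -0.07. In the kidney 8249 of all 17550 estimates were higher, and the part of endothelial cells in the Vwf value was not tested there either. Gp1ba had estimates of -0.15 in the heart, -0.58 in the kidney, -0.35 in the liver, and -0.76 in the small intestine, with SEs from 0.44 to 0.78.

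Whether the KO difference in the spleen differed from that in the other 4 organs was tested as an interaction over all 20 libraries. No gene was called among 23159 tested (0%), the platelet genes included. For Pf4 the difference of log2 fold changes was -0.83 (SE 0.65, adjusted p 1 in edgeR's test), for Vwf -0.98 (SE 0.57), for Itga2b -0.94 (SE 0.55), and for Gp9 0.38 (SE 1.02). A difference between the spleen and the other organs was thus not shown for any of these genes. Erythroid genes, for comparison, had median log2 fold changes of 0.0026 in the heart, 0.23 in the kidney, -0.05 in the liver, and 0.09 in the small intestine, with no DEG.

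Outside the 9 genes, those closest in pattern were sought by the correlation of their log2 CPM with the mean of the 8 measured genes over the 20 libraries, which share the 5 organs as the main source of variation. Among 23151 genes the highest Pearson r was that of Tubb1, the gene of the beta-tubulin of platelets, at 0.962, with 17.7 TPM in the spleen and 2.86 TPM in the heart on average. Next came Chil3 (0.960), the gene of a chitinase-like secreted protein of myeloid cells, Adgre5 (0.959), which encodes the adhesion receptor CD97, and Klf2 (0.952), a transcription factor gene of lymphocytes and endothelium. Rgs18 (0.949), a regulator of G protein signalling in platelets, the kinase gene Fyn (0.941), the receptor gene Prokr2 (0.940), and the histocompatibility gene H2-T24 (0.938) followed. Each of the 8 measured genes is itself part of the mean, which raises its r, so their values do not compare with those of the genes above. Among the 8, Treml1 was closest to the mean at 0.979 and Itga2b farthest at 0.687.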

How the data were processed

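The authors trimmed read pairs of a stranded mRNA library kit with cutadapt, mapped them with HISAT2 2.1.0 to mm10, counted exons with featureCounts 2.0.1, and deposited raw counts per gene, with no normalization. The methods name strand and pair options that the stored command lacks, and mates appear to be counted separately, so the floor of 3 counts covers counting error only; the intervals use the spread between libraries. From the counts, edgeR 4.0.16 (TMM, filterByExpr, robust quasi-likelihood test) was fitted to the whole table within each organ, and to all 20 libraries for interactions and organs; DESeq2 1.42.0, the tool of the methods, was an alternative. An SE is the log2 estimate over the root of F. TPM used the deposited lengths. Of 32 erythroid genes listed, 1 was not analysed here. The 9 genes and all lists were chosen with earlier results of these data known. Named genes are the 9, in each list the DEGs (up to 5, by p), the highest, lowest, and most abundant gene, and the 8 most similar genes; 2 genes that this rule names are not reported here. The fits were tested on simulated counts. Bisulfite data were not analysed here.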

Additional observations from a re-analysis of the deposited data

Results flagged for a closer look

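Itga2b had a log2 fold change 0.977 higher in the liver than in the spleen, and both KO libraries lay above both WT libraries in the liver and below them in the spleen. Of all genes tested, 2701 of 15729 lay above in this way in the liver, and 2706 of 18834 below in the spleen. The interaction between these organs, tested in the fit of all 20 libraries, was -1.01 for the spleen minus the liver (SE 0.70, adjusted p 1 in edgeR's test). Vwf had a log2 fold change in the spleen minus that in the kidney of -1.48, and its KO libraries lay below the WT libraries in the spleen and above them in the kidney. In the kidney, 1815 of all 17550 genes tested had both KO libraries above both WT libraries. The corresponding interaction was -1.54 (SE 0.73, adjusted p 1). Neither difference passed the test.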

How the results depend on the processing

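With the alternatives run, no platelet gene was called in the spleen, and the median of the 8 genes stayed between -0.77 and -0.29. The median of the erythroid genes ranged from 1.10 to 1.70 with 1 library left out, the highest being without WT replicate 2. The count of DEGs in the spleen depended far more on the setting, from 0 higher and 0 lower without KO replicate 2 or in one fit of all 20 libraries to 265 and 6 without WT replicate 2 and 70 and 301 without WT replicate 1. It was 20 and 1 without KO replicate 1, 200 and 8 with DESeq2, 260 and 53 without a filter on low counts, 104 and 1 with at least 10 counts in every library, and 51 and 1 with RLE size factors. Erythroid DEGs numbered 24 with DESeq2, 25 without the filter, 15 with at least 10 counts, 14 with the replicate block, 24 without WT replicate 2, 14 without WT replicate 1, 7 without KO replicate 1, and 0 without KO replicate 2 and in one fit of all 20 libraries. DEGs among the 18 genes of dividing cells numbered 9 with DESeq2, 10 without the filter, 4 with at least 10 counts, 3 with RLE size factors or the block, and 0 in one fit of all 20 libraries. With 1 spleen library left out, list medians ranged from -0.43 to -0.03 for the platelet receptors, from -0.29 to -0.06 for the granule list, from -0.55 to -0.14 for the endothelial genes, and from -1.25 (without KO replicate 2) to 0.09 for the neutrophil genes, of which 3 were called lower without WT replicate 1, as were 301 of all 19970 genes. With 1 WT or KO library left, the fits assume that the lone library varies like the other pair.

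Because the labels number the replicates, a replicate block was also fitted, although 2 pairs per organ do not show whether the numbers pair the samples. The correlation of deviations between libraries of the same number was 0.00707 in the spleen, 0.365 in the heart, 0.126 in the kidney, 0.0376 in the liver, and 0.570 in the small intestine. In the heart, the column names of WT and KO replicate 2 carry the mark "pre", which the labels do not explain. Their total counts were 36090637 and 41763236, compared with 17959542 and 15897446 for WT and KO replicate 1. The block left 42 higher and 1 lower genes called in the spleen, and it called 16 and 4 in place of 8 and 0 in the liver and 0 and 6 in place of 0 and 0 in the heart. It turned the sign of Ppbp in the liver (0.13), of kidney Itga2b (0.18), and of heart Vwf (0.11), none of which was called. In one fit of all 20 libraries Itga2b in the kidney was 0.025.

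With 1 library left out, signs turned mostly outside the spleen. The values ranged from -0.45 to 0.40 for Gp9 in the spleen. In the small intestine they ranged from -0.28 to 0.29 for Itga2b and from -0.17 to 1.16 for Vwf, and in the liver from -0.31 to 1.18 for Pf4, from -0.51 to 0.83 for Ppbp, from -1.09 to 0.17 for Gp1ba, and from -0.48 to 2.37 for Gp5. In the kidney they ranged from -1.15 to 0.64 for Pf4 and from -0.57 to 1.01 for Itga2b, and in the heart from -0.50 to 0.66 for Pf4, from -1.21 to 1.14 for Gp9, from -0.46 to 0.10 for Gp1ba, and from -0.61 to 0.89 for Vwf. The number of platelet genes called in the kidney ranged from 0 to 1, the one being Itga2b without WT replicate 1 (log2 fold change 1.01, adjusted p 0.0895 in edgeR's test), in a fit that called 2607 of 18244 genes higher. The causes were not tested. Outside the spleen, low counts limit what many of these values can show. This does not hold for Pf4 and Vwf in the heart, which had 549 counts or more in each library.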
